A study of Mus musculus with 9 samples.

Results

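Hox genes encode homeodomain transcription factors that lie side by side in 4 clusters, A to D, and the same position in each cluster is held by related genes called a paralog group. In the mouse embryo, genes at the low-numbered end of a cluster are switched on early and towards the head, and genes at the high-numbered end later and towards the tail and the tips of the limbs. In skin, the Hox genes that are on differ between body sites and are best known as a record of position in dermal fibroblasts, while Hoxc13 is needed for hair and nails.

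The members described here are the rows of the gene table whose Ensembl identifiers map to a protein-coding symbol of Hoxa, Hoxb, Hoxc or Hoxd with a number. There were 39 of them among 49672 rows. Cluster A, on mouse chromosome 6, held 11, cluster B on chromosome 11 held 10, cluster C on chromosome 15 held 9, and cluster D on chromosome 2 held 9. By position, 8 were anterior (paralog groups 1 to 3), 15 central (groups 4 to 8) and 16 posterior (groups 9 to 13). Hoxc12 was listed at 0 in every library and the other 38 were above 0 in at least 1.

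The libraries were made from total RNA of sorted epidermal cells of strain Sox2-GFP at postnatal day 0, and every group carried this Sox2 reporter. Merkel cells, the touch cells of the epidermis, were sorted as GFP-positive cells, and basal keratinocytes as GFP-negative cells with SCA1 and CD49F on their surface. As background, Sox2 is known to be active also in dermal papilla cells of some hair follicles. Each of 3 sample numbers gave 1 Merkel library and 2 basal libraries, called here its first and second basal library. How the first and second differ, and what a sample number stands for (animals, litters or pools), is not in the labels, so the p-values measure only the spread between sample numbers, which may be technical.

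Levels are TPM, transcript abundances scaled to 1 total per library, which are scaled for transcript length and can be compared between genes. TPM keeps no read depth, so the reads behind a value are unknown. Between 13012 and 13649 genes reached 1 TPM per library. The GFP sort can be read from the table: the EGFP row held 178 to 247 TPM in Merkel libraries, 1.73 to 3.72 TPM in first basal and 13.4 to 18.3 TPM in second basal libraries. All 9 listed Merkel markers, among them Atoh1 and Krt20, passed the test as higher, with a summed level of 872 to 1161 TPM in Merkel libraries and of only 2.37 to 5.96 TPM in basal ones. The 8 basal keratinocyte markers, led by Krt14, summed to between 5991 and 6918 TPM in Merkel libraries and between 14802 and 19634 TPM in basal ones, so transcripts of these markers were abundant in the Merkel libraries too.

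The start sites of cluster A are shown because the 2 ends of this cluster differed between the cell types in opposite directions. The sequences are the 250 bases before a RefSeq start of Hoxa2 and Hoxa5, on the side that was lower in Merkel cells, and of Hoxa10 and Hoxa13, on the side that was higher. They come from RefSeq on build GRCm38.p6, minus strand, written 5′ to 3′ with each CG pair in capitals.
Hoxa2, chr6:52164832-52165081: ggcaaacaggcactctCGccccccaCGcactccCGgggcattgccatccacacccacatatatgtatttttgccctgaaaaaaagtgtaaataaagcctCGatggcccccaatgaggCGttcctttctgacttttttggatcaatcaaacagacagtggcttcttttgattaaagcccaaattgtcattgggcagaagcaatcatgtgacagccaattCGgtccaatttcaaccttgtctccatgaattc
Hoxa5, chr6:52204588-52204837: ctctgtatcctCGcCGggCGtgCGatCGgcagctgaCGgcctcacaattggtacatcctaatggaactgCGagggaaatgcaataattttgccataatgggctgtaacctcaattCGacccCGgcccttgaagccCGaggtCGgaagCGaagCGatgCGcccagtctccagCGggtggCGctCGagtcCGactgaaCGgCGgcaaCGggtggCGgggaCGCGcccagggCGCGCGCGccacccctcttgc
Hoxa10, chr6:52240855-52241104: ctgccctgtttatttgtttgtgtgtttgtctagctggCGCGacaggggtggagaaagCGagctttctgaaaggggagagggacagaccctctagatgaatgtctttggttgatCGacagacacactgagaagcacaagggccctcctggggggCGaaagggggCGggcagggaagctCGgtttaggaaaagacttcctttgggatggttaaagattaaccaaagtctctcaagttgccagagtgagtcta
Hoxa13, chr6:52260881-52261130: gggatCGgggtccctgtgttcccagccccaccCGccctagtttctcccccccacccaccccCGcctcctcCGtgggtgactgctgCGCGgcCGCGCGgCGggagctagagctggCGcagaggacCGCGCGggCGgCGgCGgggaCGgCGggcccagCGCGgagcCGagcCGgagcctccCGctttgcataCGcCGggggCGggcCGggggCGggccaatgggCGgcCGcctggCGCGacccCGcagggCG
None of these windows overlaps an annotated exon. Hoxa2 held 6 CG pairs at 46.4% G and C, Hoxa5 held 28 at 63.6%, Hoxa10 held 7 at 51.6% and Hoxa13 held 35 at 80.0%. Hoxa10 has 2 RefSeq starts. The window shown lies before the annotated start of the gene, and the one before the other start, chr6:52234940-52235189, held 20 CG pairs at 59.2% G and C. RefSeq promoters were matched for 22 members with 24 start sites, whose windows had a median of 12.5 CG pairs and 58.6% G and C, against 6.0 CG pairs and 52.4% over all 32851 promoters of the same length. Sequence matches on either strand were counted as a description. CCAAT was in 58.3% of the Hox windows and 33.8% of all, TATAAA in 16.7% and 12.4%, and GGGCGG, an Sp1-type match, in 41.7% and 32.7%. TTTATG, a Cdx-type match, was in 20.8% (5 of 24 windows) and 10.8%. AGGTCA, a nuclear receptor half-site that retinoic acid receptors also bind, was in 25.0% (6 of 24) and 14.0%. TGATTNAT, a Pbx and Hox type match, was in 8.3% (2 of 24) and 2.8%. The Hox shares rest on few windows and were not tested, and some of the 24, such as those of Hoxa6 and Hoxc4, overlap annotated exons.

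Central members made up most of the Hox TPM of every library, at 55.7% to 62.3% for Merkel and 63.6% to 67.9% for basal. The sorted groups differed in the balance of the 3 parts of the clusters. Anterior members summed to 18.5, 13.7 and 17.01 TPM in Merkel libraries 1, 2 and 3, and to 25.5 to 31.3 TPM in the 6 basal libraries. Central members summed to 49.0, 37.7 and 48.1 TPM in Merkel libraries against 54.3 to 70.6 TPM in basal libraries. Both sums were lower in every Merkel library than in every basal library. Posterior members summed to 13.3, 9.14 and 21.3 TPM in Merkel libraries, to 2.85, 2.25 and 2.29 TPM in first basal libraries, and to 5.65, 4.16 and 4.03 TPM in second basal libraries. This sum was higher in every Merkel library, and the ratio of the means was 4.12, or 3.17 without Merkel library 3. The ratio was 0.578 for anterior and 0.726 for central members. Posterior members made up 15.1% to 24.7% of all Hox TPM in Merkel libraries but 2.68% to 5.25% in basal libraries. The sum over all members, 75.9 ± 13.6 TPM in Merkel cells and 93.8 ± 5.47 TPM in basal keratinocytes (SD, n = 3 sample numbers each), overlapped between the groups. In sorted bulk samples, fewer cells with a transcript and less transcript per cell cannot be told apart.

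**Figure D1:**
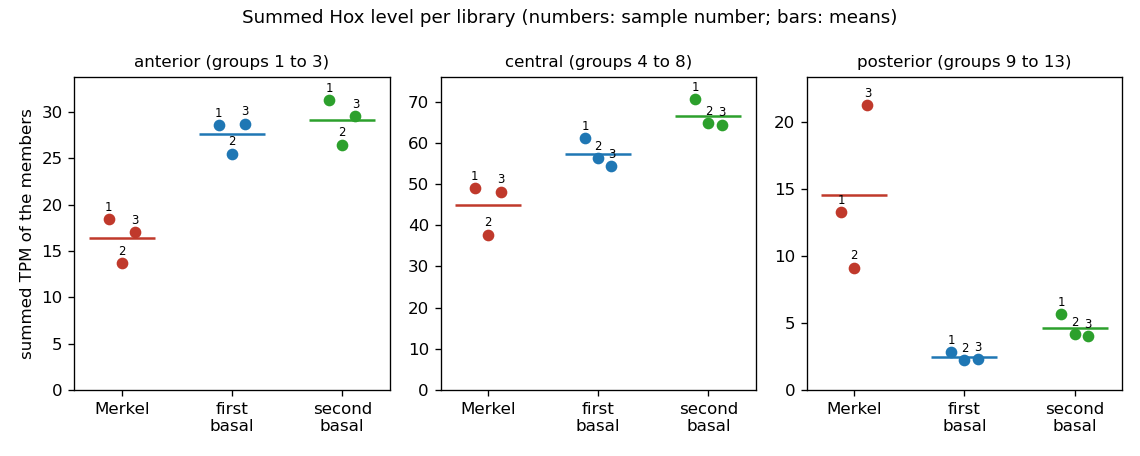
Summed TPM of the anterior (groups 1 to 3), central (groups 4 to 8) and posterior (groups 9 to 13) Hox genes in each library; points are libraries with their sample number and bars are group means. The Merkel libraries lie below all basal libraries for the anterior and central sums and above them for the posterior sum, where they sit at 13.3, 9.14 and 21.3 TPM.

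Each gene was tested with limma on log2(TPM + 1) over 3 Merkel and 3 basal values, a basal value being the mean of the 2 libraries of a number. Differences on this scale understate the change of genes near 0. A gene entered if it reached 1 TPM in at least 3 of the 6 values, and 20 members did: 9 of cluster A, 5 of B, 5 of C and 1 of D. Posterior members were thinly covered, with 3 of 16 tested, because most lay near 0 in basal keratinocytes and under 1 TPM in at least 1 Merkel library. A gene was called when the adjusted p was under 0.05 and the log2 difference was at least 1. This 2-fold limit is on log2(TPM + 1), so genes at low levels need a larger change in TPM to pass. Under these rules 2 members were called higher in Merkel cells and 1 lower. The background was 6.79% of tested genes called higher and 5.27% called lower. At an adjusted p alone, 3 members were higher and 9 lower, against 13.2% and 28.5% of all tested genes. The 9 lower members were all among the 17 tested at positions 1 to 8, where none was higher. The 3 members tested at positions 9 to 13 were each higher, but Hoxa10, at 0.03 to 0.38 TPM in basal libraries, could enter only through its Merkel values, and 13 of 16 were not tested, so this count is no result about the posterior members. Over all tested genes 938 were called higher and 729 lower, and with median-ratio scaling of the libraries 1097 and 418. That scaling moved the median log2 difference of all tested genes from -0.15 to 0.05, and the median of the 20 members from -0.31 to -0.14. Under it, 9 members at positions 1 to 8 were still lower by adjusted p alone and 1, Hoxd8, was higher.

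**Figure D2:**
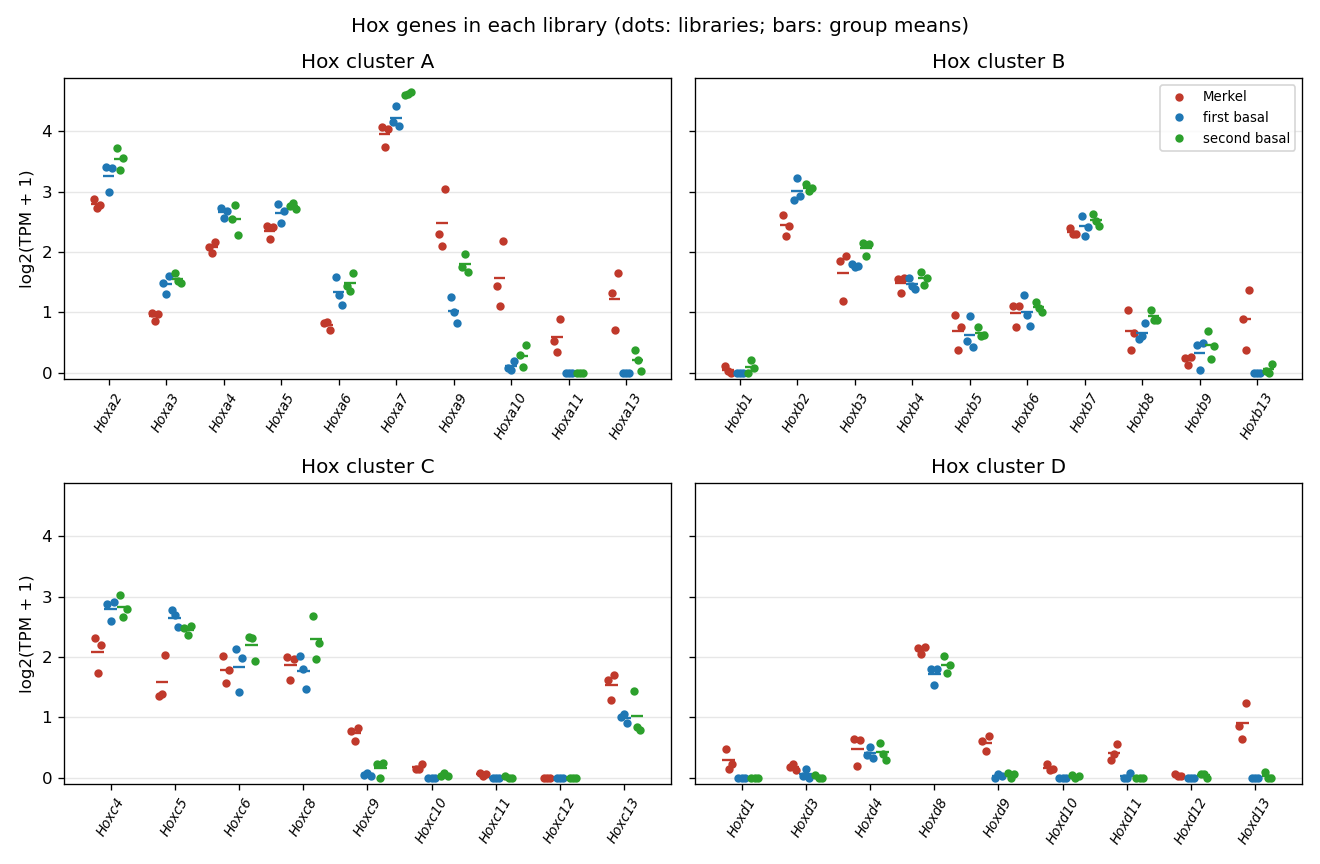
Level of the Hox genes described on the log2(TPM + 1) scale in the 4 clusters, in order of position; dots are the 3 Merkel, 3 first basal and 3 second basal libraries and bars are group means. In cluster A the Merkel dots lie below all basal dots from Hoxa2 to Hoxa7 and above them from Hoxa9 to Hoxa13, in TPM as deposited, while most of cluster B overlaps.

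In cluster A, none of the members from Hoxa2 on overlapped between the cell types. The 6 members at positions 2 to 7 were lower in all 3 Merkel libraries than in all 6 basal libraries, and the 4 members at positions 9 to 13 were higher. With median-ratio scaling, 3 of the 6 (Hoxa3, Hoxa4 and Hoxa6) kept this separation, and without mitochondrial and small RNA genes 5 did, all but Hoxa7. The 4 posterior members stayed separated under both scalings. Over all genes above 0, Merkel libraries were above every basal library for 9.55% and below for 16.8%.

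Hoxa2, which sets the identity of the second pharyngeal arch, held 6.33, 5.59 and 5.85 TPM in Merkel libraries against 6.94 to 12.2 TPM in basal libraries. Hoxa3, which acts in the thymus and parathyroid, held 0.81 to 0.99 TPM in Merkel libraries against 1.46 to 2.15 TPM in basal libraries. Both fell at adjusted p alone, Hoxa2 by 0.62 ± 0.14 (SE; limma adjusted p = 0.0075) and Hoxa3 by 0.57 ± 0.12 (limma adjusted p = 0.0060) on the log2 scale. Neither reached a log2 difference of 1.

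Of the central members of cluster A, Hoxa4 held 2.95 to 3.49 TPM in Merkel libraries against 3.87 to 5.87 TPM in basal libraries. Hoxa6 held 0.64 to 0.78 TPM and 1.18 to 2.14 TPM. Hoxa7, the most abundant Hox gene in both cell types, held 15.7, 12.4 and 15.4 TPM in Merkel libraries, 16.8, 20.4 and 16.0 TPM in first basal and 23.2, 23.5 and 24.01 TPM in second basal libraries. These 3 genes fell at adjusted p alone, by 0.52 (limma adjusted p = 0.011), 0.62 (limma adjusted p = 0.0038) and 0.47 (limma adjusted p = 0.017) on the log2 scale. The Hoxa7 gap to the first basal libraries was narrow, and against them alone the limma adjusted p was 0.19. Hoxa5, which is needed for lung and rib formation, held 3.65 to 4.38 TPM in Merkel libraries against 4.61 to 6.04 TPM in basal libraries, and its difference of -0.35 ± 0.13 missed the threshold (limma adjusted p = 0.051). It passed with sample number as a block (limma adjusted p = 0.030), with quantile normalization (0.021), without mitochondrial and small RNA genes (0.036), without a variance trend (0.044) and against second basal libraries alone (0.035), and was at 0.14 with median-ratio scaling.

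Past the gap in cluster A, where no Hoxa8 exists in the mouse, the direction turned. Hoxa9, which acts in the limb and in blood progenitors, held 3.91, 3.30 and 7.22 TPM in Merkel libraries, 1.38, 1.01 and 0.77 TPM in first basal and 2.38, 2.89 and 2.19 TPM in second basal libraries. The 3 groups did not overlap, with second basal libraries in between. Hoxa9 was called higher in Merkel cells, with a log2 difference of 1.07 ± 0.23 (SE, n = 3, limma adjusted p = 0.0057). It was 1.45 against first basal libraries (limma adjusted p = 0.0022) and 0.68 against second basal libraries (limma adjusted p = 0.042). Without Merkel library 3 it was 0.79 (limma adjusted p = 0.0078), and without basal number 3 it was 0.99 (limma adjusted p = 0.023), so the 2-fold limit was not met in these.

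Hoxa10, which patterns the lumbar spine and the uterus, held 1.71, 1.15 and 3.53 TPM in Merkel libraries against 0.03 to 0.38 TPM in basal libraries. Merkel library 3 was the highest and library 2 the lowest, and all 3 stood clear of the basal values. It was called higher, by 1.38 ± 0.25 on the log2 scale (SE, n = 3, limma adjusted p = 0.0023), and by 1.08 without Merkel library 3. Since its basal level was near 0, it could enter the test only with all 3 Merkel values at 1 TPM or more, which places it near the limit of a call from the start.

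Hoxa11 and Hoxa13 were below the filter. Hoxa11, which forms the forearm and lower leg, held 0.43, 0.27 and 0.85 TPM in Merkel libraries and was listed at 0 in all 6 basal libraries. Hoxa13, which forms the digits and the genital tubercle, held 1.49, 0.63 and 2.14 TPM in Merkel libraries. It was listed at 0 in the 3 first basal libraries and held 0.29, 0.16 and 0.02 TPM in the second. For both genes every Merkel value was above every basal value, at levels where few reads may stand behind a value.

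**Figure D3:**
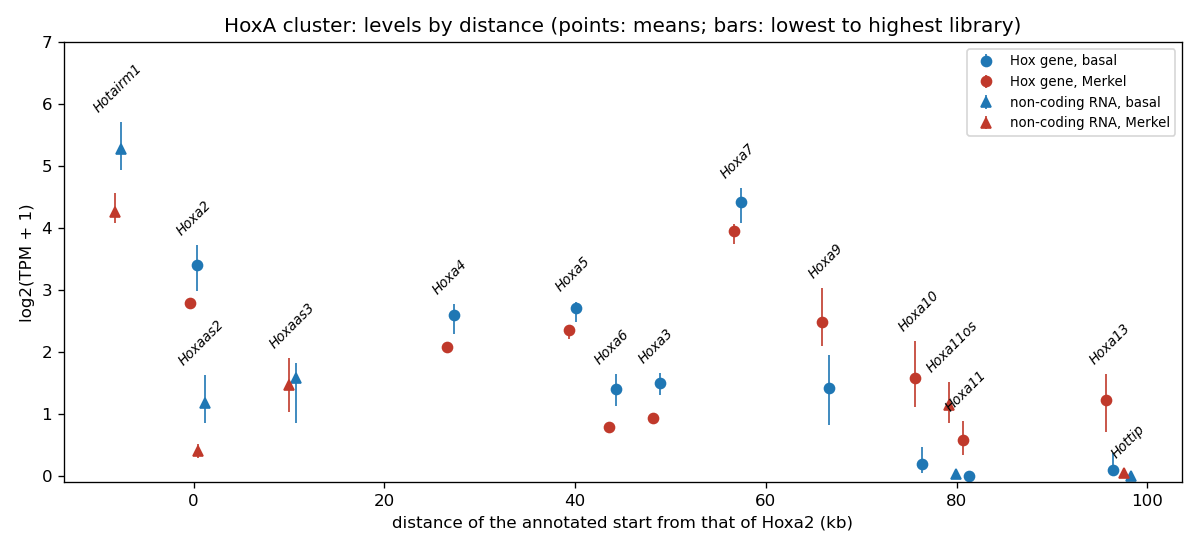
Levels of the cluster A Hox genes (circles) and of non-coding RNAs of the cluster (triangles) on the log2(TPM + 1) scale against the distance of their annotated start from that of Hoxa2, in kb; points are means and bars run from the lowest to the highest library. Merkel points lie below basal points from Hotairm1 and Hoxa2 to Hoxa7 and above them from Hoxa9 on; Hoxa3 is drawn at its longest annotated transcript, which starts beyond Hoxa6, and Hoxaas3 overlaps between the groups.

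Of the 10 members of cluster B, 8 overlapped between Merkel and basal libraries, 1 was above all basal libraries and 1 below. Over all genes above 0 the shares were 9.55% above and 16.8% below. Hoxb2, which acts in the facial motor neurons of the hindbrain, held 5.15, 3.81 and 4.41 TPM in Merkel libraries against 6.29 to 8.39 TPM in basal libraries, and fell by 0.60 ± 0.14 on the log2 scale (SE, n = 3, limma adjusted p = 0.0075). Its 4 tested neighbours did not pass at adjusted p. Their log2 differences were -0.26 ± 0.20 for Hoxb3, -0.03 ± 0.13 for Hoxb4, -0.05 ± 0.15 for Hoxb6 and -0.15 ± 0.13 for Hoxb7. With median-ratio scaling those of Hoxb4, Hoxb6 and Hoxb7 had the opposite sign, at 0.11, 0.06 and 0.04. Hoxb7 was the most abundant of them, with 3.89 to 4.27 TPM in Merkel libraries against 3.82 to 5.18 TPM in basal libraries.

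Hoxb1, Hoxb5, Hoxb8 and Hoxb9 were below the filter and overlapped between the groups, with no value above 1.06 TPM. Hoxb9 was the posterior member with a lower mean in Merkel cells, at 0.09 to 0.19 TPM against 0.03 to 0.62 TPM. Hoxb13, the posterior end of the cluster and a gene of the prostate and tail, differed from its neighbours. It held 0.86, 0.30 and 1.58 TPM in Merkel libraries, was listed at 0 in 4 basal libraries, and held 0.02 and 0.11 TPM in the other 2. It lies apart from the other members of the cluster, with its start at 96194316 on chromosome 11 (GRCm38) and the nearest member, Hoxb9, starting at 96271457.

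In cluster C, which in the mouse begins at position 4, the 2 members nearest the anterior end were lower. Hoxc4 held 3.97, 2.33 and 3.59 TPM in Merkel libraries against 5.08 to 7.16 TPM in basal libraries. Hoxc5 held 1.55, 1.61 and 3.07 TPM in Merkel libraries against 4.12 to 5.84 TPM in basal libraries. Both were below all basal libraries, and both fell at adjusted p, Hoxc4 by 0.73 ± 0.18 (SE; limma adjusted p = 0.010) and Hoxc5 by 0.96 ± 0.19 (limma adjusted p = 0.0036) on the log2 scale. Hoxc5 was just short of the 2-fold limit on log2(TPM + 1), though its ratio of mean TPM, Merkel to basal, was 0.425. Without Merkel library 3 its log2 difference was -1.18 and was called.

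Hoxc6 and Hoxc8, which act in the thoracic skeleton and in motor neurons of the forelimb level, overlapped between the groups. Their log2 differences were -0.23 ± 0.16 (SE; limma adjusted p = 0.30) and -0.17 ± 0.18 (limma adjusted p = 0.48). Hoxc8 had the opposite sign, 0.09, against first basal libraries alone.

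Hoxc13, which drives hair shaft keratins and whose loss leaves mice without external hair, was the most abundant posterior member outside cluster A in both cell types. It held 2.07, 1.43 and 2.25 TPM in Merkel libraries, 1.01, 1.08 and 0.87 TPM in first basal and 1.71, 0.78 and 0.72 TPM in second basal libraries. Second basal library 1 overlapped the Merkel range and the other 5 basal libraries lay below it. The log2 difference of 0.53 ± 0.16 passed at adjusted p alone (SE, n = 3, limma adjusted p = 0.028). It no longer passed when any of Merkel libraries 1 and 3 or basal numbers 2 and 3 was left out, at limma adjusted p between 0.062 and 0.11. Of 17 genes on the list of hair keratins, Foxn1 and Msx2, which are known to lie downstream of or beside Hoxc13 in the hair follicle, 16 were in the table and 6 were tested. None was called, and 2 were higher at adjusted p alone, against 13.2% of all tested genes: Msx2, a homeodomain factor of the hair matrix, by 0.91 ± 0.16 (SE; limma adjusted p = 0.0023), and Krt35, a hair shaft keratin, by 0.71 ± 0.19 (limma adjusted p = 0.015). Krt25, the most abundant of those tested, held 9.07 to 19.5 TPM in Merkel libraries against 5.15 to 16.6 TPM in basal libraries, which overlap.

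The other posterior members of cluster C were below the filter. Hoxc9, which acts in thoracic motor neurons, held 0.71, 0.52 and 0.77 TPM in Merkel libraries against 0.00 to 0.18 TPM in basal libraries. Hoxc10 held 0.10 to 0.17 TPM in Merkel libraries and at most 0.05 TPM in basal libraries. Both were separated between the groups. Hoxc11 reached no more than 0.05 TPM, and Hoxc12 was listed at 0 throughout.

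Cluster D was the least abundant cluster, and the one with a higher sum in Merkel cells. Its members summed to 6.24, 4.91 and 6.83 TPM in Merkel libraries against 2.48 to 3.78 TPM in basal libraries, a ratio of the means of 2.05. No member was lower in Merkel cells on the group mean of the log2 values, and 6 of 9 were above all basal libraries, against 9.55% of all genes above 0. With median-ratio scaling this was again 6 of 9, against 16.1%. Hoxd8 was the 1 member tested. It held 3.41, 3.16 and 3.46 TPM in Merkel libraries against 1.91 to 3.06 TPM in basal libraries, without overlap, and its log2 difference of 0.32 ± 0.13 missed the threshold (SE, n = 3, limma adjusted p = 0.076). It passed as higher with median-ratio scaling, at 0.49 (limma adjusted p = 0.0085), without mitochondrial and small RNA genes, at 0.44 (limma adjusted p = 0.022), and with quantile normalization, at 0.30 (limma adjusted p = 0.0498).

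The posterior members of cluster D, which shape the forearm and digits, were near 0 in basal keratinocytes. Hoxd13, whose mutation in the mouse shortens the digits, held 0.80, 0.56 and 1.37 TPM in Merkel libraries, and among the basal libraries only second basal library 1, with 0.07 TPM, was above 0. Hoxd9 held 0.53, 0.35 and 0.61 TPM in Merkel libraries and at most 0.06 TPM in basal libraries, and Hoxd11 held 0.22, 0.31 and 0.47 TPM against at most 0.06 TPM. Hoxd10 reached 0.09 to 0.17 TPM in Merkel libraries, and Hoxd12 no more than 0.04 TPM in any library. At the other end, Hoxd1, known in sensory neurons of the mouse, held 0.39, 0.11 and 0.17 TPM in Merkel libraries and was listed at 0 in all basal libraries. Hoxd3 and Hoxd4 overlapped between the groups, at 0.09 to 0.17 against 0.00 to 0.11 TPM and at 0.14 to 0.55 against 0.22 to 0.49 TPM.

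To include the members below the filter, the fit was repeated on all 28451 genes above 0. With 38 members in it, 13 were higher and 9 lower at adjusted p alone (limma), against 8.67% and 17.1% of all genes. The 13 were 11 of the 15 posterior members above 0 and 2 anterior ones, Hoxd1 and Hoxd3, and the 9 lower members were at positions 1 to 8. Some of the 13 differed by little: Hoxc10 by 0.15, Hoxd10 by 0.15 and Hoxd3 by 0.14 on the log2 scale. With the pseudocount also reduced to 0.1 TPM, an alternative chosen after seeing the data, 11 members were called higher and 3 lower, against 6.99% and 7.83% of all genes. Those higher were 10 posterior members and Hoxd1, and those lower included Hoxa6 and Hoxc5. Members near 0 in basal keratinocytes could hardly be lower in Merkel cells. Hoxa11 and Hoxd1, at 0 in all basal libraries, entered only through their Merkel values. So neither count of higher members is a result about the posterior members. The median log2 difference without the filter was -0.41 for anterior, -0.17 for central and 0.54 for posterior members, against -0.04 for all 28451 genes.

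Across members, the log2 difference went with the position number. Spearman's rho was 0.67 over the 38 members, 0.85 over 11 in cluster A, 0.81 over 8 in cluster C, 0.21 over 10 in cluster B and 0.30 over 9 in cluster D. These are descriptions: the members share the same libraries, and neighbours share chromosomal domains. Position also went with the basal level, at rho -0.54 over the 38 members, -0.74 in cluster A and -0.83 in cluster C. With the Merkel level rho was -0.26, -0.30 and -0.76. Members near 0 in basal libraries could hardly be lower in Merkel cells, so this floor limits what the trend can show. By paralog group, the ratio of summed TPM, Merkel to basal, was 0.612 for group 2, 0.734 for group 7 and 1.03 for group 8. It was 2.79 for group 9, 13.7 for group 10, 66.5 for group 11 and 4.53 for group 13. In these sums the turn lay between groups 7 and 9, but not every cluster showed it there. In cluster B the log2 differences of Hoxb7, Hoxb8 and Hoxb9 were -0.15, -0.10 and -0.19, and cluster D was above 0 throughout. The basal denominators of groups 10 and 11, at 0.173 and 0.0133 TPM, are close to 0, which makes these ratios imprecise.

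**Figure D4:**
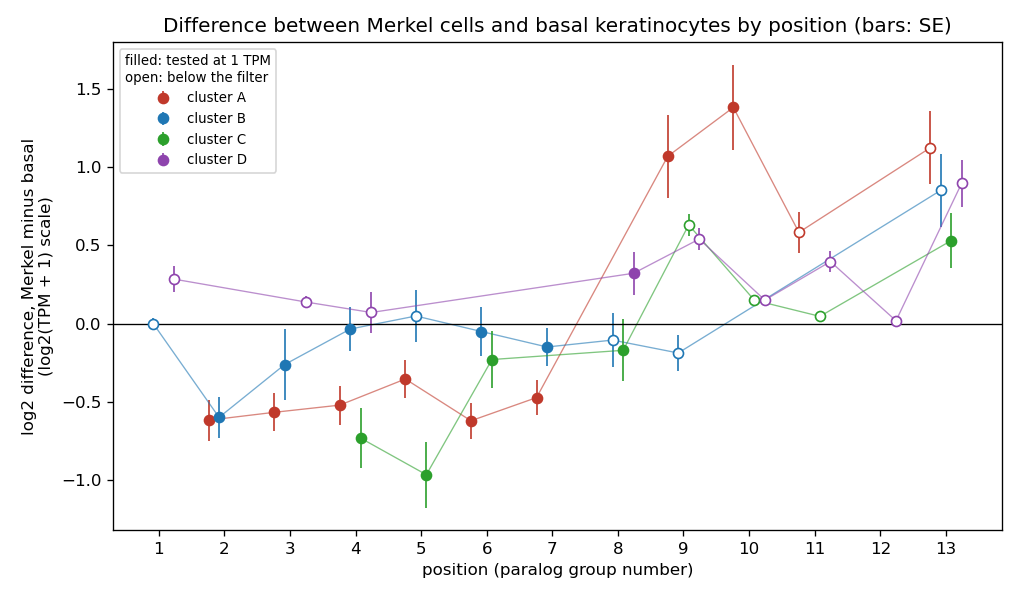
Log2 difference between Merkel and basal values (log2(TPM + 1) scale, fit without a filter, SE as bars) against paralog group for the members described in each cluster; filled points passed the filter at 1 TPM and open points did not. Differences are below 0 for clusters A and C at positions 1 to 8 and above 0 at positions 9 to 13, with cluster B between -0.26 and 0.05 at positions 3 to 9 and cluster D above 0 throughout.

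The Merkel libraries varied among themselves at the posterior end. Merkel library 3 was the highest of the 3 in 12 of 16 posterior members and in 17 of all 39. Merkel library 2 was the lowest in 32 of 39 members, and its median-ratio size factor was 0.807, against 0.939 and 0.979 for the other Merkel libraries and 1.01 to 1.10 for the basal libraries. The shares over all genes were not counted, so these rank counts are not shown to be particular to Hox genes. Between libraries 2 and 3 the posterior sum differed by a factor of 2.33 and the anterior sum by 1.24.

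Markers of other cell types also moved with the Merkel group; the counts below stand against 6.79% of all tested genes called higher and 5.27% called lower. Of 15 markers of dermal fibroblasts and dermal papilla, 11 were tested, 9 were called higher in Merkel cells and 1, Postn, lower. Col3a1, a fibrillar collagen, held 24.4 to 36.1 TPM in Merkel libraries against 0.55 to 1.37 TPM in basal libraries, and Pdgfra, a fibroblast receptor, 5.15 to 7.14 TPM and 0.01 to 0.17 TPM. The summed level of the list was 396 to 419 TPM in Merkel and 539 to 708 TPM in basal libraries, where Postn was the most abundant member. Rspo3, Corin and Sox18, also on this list of fibroblast and dermal papilla markers, were called higher. They held 13.03 to 15.68, 8.37 to 10.33 and 3.64 to 8.42 TPM in Merkel libraries. In basal libraries they reached at most 0.18, 0.14 and 0.64 TPM. Twist2 and Dpt, which mark dermal fibroblasts, were below the filter, but every Merkel value was above every basal value. They held 0.43 to 0.78 and 0.1 to 0.18 TPM in Merkel libraries. In basal libraries Twist2 was listed at 0 and Dpt reached at most 0.03 TPM. Of 8 melanocyte markers, 6 were called higher, with sums of 162 to 230 TPM in Merkel, 17.1 to 37.5 TPM in first basal and 116 to 168 TPM in second basal libraries. Of 9 hair follicle markers 1, Lhx2, was called higher and 1, Lef1, lower. Sums were 103 to 164 TPM in Merkel, 98.0 to 136 TPM in first basal and 155 to 227 TPM in second basal libraries. Of 9 nerve markers 1 of 3 tested, S100b, was called higher, sums were at most 13.9 TPM, and Scn10a was at 0 in all Merkel libraries. The part of these cells in the posterior Hox levels was not tested.

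Second basal libraries lay between first basal and Merkel libraries for the posterior sum, at 4.03 to 5.65 TPM, and above both for the central sum. When second and first basal libraries were compared, no member was called in either direction by limma, while 0.629% of tested genes were called higher and 2.92% lower. At an unadjusted p under 0.05, 3 of the 20 tested members were higher in second basal libraries and none lower, against 13% and 8.21% of all tested genes. At adjusted p alone only Hoxa9 passed, higher by 0.77 ± 0.14 on the log2 scale (SE, n = 3, limma adjusted p = 0.026), against 3.36% of all tested genes higher and 3.94% lower. With sample number as a block, 1270 and 844 genes passed in place of 464 and 544. The median log2 difference, second minus first, was 0.108 for the 20 tested members and 0.057 for all tested genes. With median-ratio scaling these medians were 0.067 and 0.011. A list of immune and vessel markers, led by the macrophage gene Csf1r, summed to 139 to 297 TPM in first basal, 13.8 to 28.3 TPM in second basal and 16.2 to 32.3 TPM in Merkel libraries. Its vessel markers were a small part of this. Kdr and Cdh5 reached at most 0.88 and 0.10 TPM in any library. Pecam1 was higher in Merkel libraries, at 1.43 to 2.25 TPM against 0.21 to 0.66 TPM in basal ones. EGFP and melanocyte markers, given above, were higher in second than in first basal libraries. So were 4 of 9 hair follicle markers at adjusted p alone (limma), against 3.36% of all tested genes, and none was lower. Their part in these differences was not tested.

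Hox proteins bind DNA with partners of the TALE homeodomain family, Pbx, Meis and Pknox. Of 9 listed partners 7 were tested, none was called, and 2 were higher at adjusted p alone, against 13.2% of all tested genes. Meis1 held 7.97, 7.10 and 11.6 TPM in Merkel libraries against 3.44 to 6.62 TPM in basal libraries, a log2 difference of 0.77 ± 0.18 (SE; limma adjusted p = 0.0079). Meis3 held 3.66 to 6.22 TPM and 1.88 to 3.32 TPM, a log2 difference of 0.76 ± 0.18 (limma adjusted p = 0.0090). Neither overlapped between the cell types. Pbx2, the most abundant partner, held 22.2 to 33.2 TPM in Merkel and 25.6 to 32.4 TPM in basal libraries, which overlap. The median log2 difference of the list was 0.11, against -0.15 for all tested genes.

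Of 10 chromatin and Cdx factors known to keep Hox genes active, 7 were tested, none was called, and 5 were lower at adjusted p alone, against 28.5% of all tested genes. They were Ash1l, a histone methyltransferase (-0.66, limma adjusted p = 0.0033), Brpf1 (-0.61, limma adjusted p = 0.0073) and its acetyltransferase partner Kat6a (-0.44, limma adjusted p = 0.015), Kmt2a, the mammalian trithorax methyltransferase (-0.75, limma adjusted p = 0.016), and Wdr5 (-0.50, limma adjusted p = 0.017). Psip1, the most abundant of them, held 30.6 to 39.4 TPM in Merkel and 29.1 to 44.0 TPM in basal libraries. Cdx2 and Cdx4 were listed at 0 in every library. The median of the list was -0.50 with a background median of -0.15.

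Retinoic acid switches on anterior Hox genes in the embryo. Of 18 genes for its synthesis, breakdown, binding and receptors, 11 were tested, 6 were called higher and none lower, against 6.79% and 5.27% of all tested genes, and the median log2 difference was 1.29. Cyp26b1, which degrades retinoic acid, held 16.5, 9.66 and 12.7 TPM in Merkel libraries against 0.41 to 1.11 TPM in basal libraries (log2 difference 2.99 ± 0.20, SE, limma adjusted p = 6.9e-06). Crabp1, a binding protein that is also on the dermal papilla list, Rdh10, which makes retinal, and Aldh1a3, which makes retinoic acid, were higher by 2.73, 1.35 and 1.29 on the log2 scale. The receptors Rarg, Rxra and Rara were lower at adjusted p alone, by 0.87, 0.64 and 0.41, and Rxra was the most abundant gene of the list at 54.9 to 72.7 TPM in Merkel and 87.1 to 122 TPM in basal libraries.

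The protein-coding genes beside the clusters did not show a called difference. Of 13 listed, 8 were tested, none was called, and 2 were lower at adjusted p alone, against 28.5% of all tested genes: Skap2, beside the anterior end of cluster A (-0.41, limma adjusted p = 0.013), and Cbx5, beside cluster C (-0.39, limma adjusted p = 0.027). Hnrnpa1, the most abundant, held 315 to 493 TPM in Merkel and 331 to 529 TPM in basal libraries. Evx1 and Evx2, homeodomain genes at the posterior ends of clusters A and D, reached at most 0.07 TPM.

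Of 11 non-coding RNAs listed for the clusters, 10 were in the table and 4 were tested. Hotairm1, an antisense RNA of cluster A known from myeloid cells, was the 1 called, as lower, against 5.27% of all tested genes called lower. It held 22.6, 16.4 and 15.9 TPM in Merkel libraries, 51.6, 41.2 and 41.4 TPM in first basal and 29.8, 35.6 and 31.7 TPM in second basal libraries, with a log2 difference of -1.03 ± 0.15 (SE, n = 3, limma adjusted p = 0.00070). This is just past the 2-fold limit, and the gap to second basal libraries was narrower. Second basal libraries were lower than first by 0.45 on the log2 scale (limma adjusted p = 0.079). Hoxa11os, on the opposite strand of Hoxa11, was below the filter, with 1.12, 0.80 and 1.85 TPM in Merkel libraries and at most 0.07 TPM in basal libraries. Hoxa11os lay on the same side as Hoxa11, with which its annotated model shares 800 exonic bases. The rows of 6 microRNA genes of the clusters were listed at 0 in all libraries.

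Some members share sequence with another gene, so reads may have been split between models and their values are uncertain. In GENCODE M21, 9 members share exonic bases with a gene on the same strand, 10 with one on the opposite strand, and 23 with none. The pairs between members are Hoxc5 with Hoxc10, over 166 bases, and Hoxd3 with Hoxd4, over 388 bases. Hoxb3 shares 52.9% of its exonic bases with Hoxb3os on the opposite strand, and Hoxd3 53.1% with the overlapping model Gm28230. The library kit was stranded, but the strand setting of the quantification is not given in the sources used here. Between clusters, 4 members share a run of at least 50 bases with a member of another cluster, Hoxa6 with Hoxb4 and Hoxb9 with Hoxc9.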

How the data were processed

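Total RNA of sorted epidermal cells was sequenced as read pairs of 125 bases from a stranded kit, per the labels' protocols. Trimmomatic, STAR, RSEM and build mm10 are named in the submitters' processing notes. Versions, annotation and strand setting were not given in the sources used here. Values as deposited are TPM per gene with 2 decimals, which the authors made by scaling each library to the same total.

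Symbols and coordinates come from GENCODE M21 (GRCm38). Of 49672 rows, 49326 matched a symbol. Values were tested with limma 3.58.1 in R 4.3.3 on log2(TPM + 1) with its variance trend (two-sided tests, p adjusted by Benjamini-Hochberg over all 13822 genes that reached 1 TPM in at least 3 of 6 values). The basal value of a sample number is the mean of its 2 libraries; mean TPM ± SD is over 3 numbers. Sums, sequences and figures were made with Python 3.11.15, pandas 2.3.3 and matplotlib 3.10.9, and the fit was tested on simulated data. The members and lists were chosen with earlier results of these data known. The values of 1 member are not reported here, though counts and sums include it. Of the other lists, apart from those of cell types, the text names called members, up to 4, and the most abundant tested one. Members set beside a count of 5 or fewer, and examples of cell type lists, were named after their values were seen.

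Same-numbered Merkel and basal samples deviated together (r from 0.20 to 0.39; first and second basal, r from 0.38 to 0.53), so the numbers pair the samples. Alternatives varied the pseudocount, filter, scaling, variance trend, block, basal libraries used and libraries left out.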

Additional observations from a re-analysis of the deposited data

Results flagged for a closer look

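Hoxa9 differed between the 2 kinds of basal library, which the labels do not tell apart. It was higher in second than in first basal libraries by 0.77 on the log2(TPM + 1) scale (limma adjusted p = 0.026, n = 3 each), in 3 of 3 sample numbers. The limma adjusted p ran from 0.012 to 0.10 over the alternatives and was above 0.05 without the filter on low values and when any 1 of the 3 second basal libraries, or first basal library 2 or 3, was left out.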

How the results depend on the processing

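The counts of called members were small and moved with the processing. The 2 members called higher became 0 with a filter at 5 TPM, where neither was tested, 1 against second basal libraries only, and 11 with no filter and a pseudocount of 0.1 TPM, chosen after seeing the data; leaving out 1 library gave 1 to 2. The 1 called lower became 3 with a pseudocount of 0.1 TPM (also without the filter), 0 with median-ratio scaling or second basal libraries only, 2 without mitochondrial and small RNA genes or with first basal libraries only, and 1 to 2 with 1 library left out. Over all genes, 938 called higher became 486 at 5 TPM and 1989 without filter and with 0.1 TPM; 729 lower became 1281 with 0.1 TPM, 449 at 5 TPM, 418 with median-ratio scaling, and 2229 without filter and with 0.1 TPM. With sample number as a replicate block, the paired fit called 2 members higher and 1 lower (960 and 759 genes overall) and changed no call of a member; at adjusted p alone it added Hoxa5 as lower, 10 in place of 9.

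For second against first basal libraries, 0 members called higher became 1 (Hoxa9, 1.19) with 0.1 TPM. All genes called higher, 87, became 181 with 0.1 TPM, 43 without filter, 131 without mitochondrial and small RNA genes, and 48 to 120 with 1 library left out; the 404 lower became 215 without filter, 130 at 5 TPM, and 209 to 486.

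Signs turned only for members near 0. With median-ratio scaling Hoxb4 was 0.11, Hoxb6 0.060, Hoxb7 0.035 and, in the basal comparison, Hoxc4 -0.018. Hoxb4 was 0.029 without mitochondrial and small RNA genes, and against first basal libraries Hoxb4 was 0.017 and Hoxc8 0.095. With 1 library left out, Hoxb6 ran from -0.13 to 0.068 and Hoxb4 from -0.073 to 0.043. In the basal comparison Hoxa4 ran from -0.24 to 0.0125, Hoxb2 from -0.013 to 0.17, Hoxb6 from -0.041 to 0.22, Hoxc13 from -0.18 to 0.15 and Hoxc4 from -0.072 to 0.11. The cause was not tested. Of the single-gene values, 304 of Merkel against basal and 277 of the basal comparison kept their direction and whether they were called at adjusted p and the 2-fold limit. Read depth is unknown.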
